A study of Mus musculus with 4 samples.

Results

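The genes described here encode the nuclear subunits of oxidative phosphorylation, the 5 protein complexes of the inner mitochondrial membrane that turn the oxidation of fuel into ATP. They were chosen by gene symbol alone, as the Ndufa, Ndufb, Ndufc, Ndufs and Ndufv genes of complex I, the Sdh genes of complex II, the Uqcr genes of complex III, the Cox4 to Cox8 genes of complex IV and the Atp5 genes of complex V. This gave 82 of the 18193 genes that had a probe set named for a gene alone, with 36 in complex I, 4 in complex II, 8 in complex III, 17 in complex IV and 17 in complex V. Each gene was read from the probe set with the highest mean over the 4 arrays. Another 10 probe sets that pair such a symbol with a further gene were not used.

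Complex I takes electrons from NADH and complex II from succinate, and both pass them to ubiquinone. Complex III hands them on to cytochrome c, and complex IV, cytochrome c oxidase, gives them to oxygen. The proton gradient built on the way drives complex V, the ATP synthase. Absorptive enterocytes are rich in mitochondria, since the sodium pump and nutrient uptake need a steady supply of ATP.

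Total RNA came from isolated small intestinal epithelial cells of adult, healthy C57BL/6J mice aged 10 weeks and kept specific pathogen-free, and each of 4 RNA samples was put on a one-colour Affymetrix array. Of these, 2 were labelled AP-1B+/- (heterozygous 1 and 2) and 2 AP-1B-/- (knockout 1 and 2). AP-1B is the epithelial clathrin adaptor for basolateral sorting, and the question of the study was what its loss does to gene expression in this epithelium. The labels state no deleted exon, no pooling and no separate animals, so the spread behind every p-value is that between these 4 samples. The 2 samples of each label had opposite sex patterns, given below, so they did not repeat the same RNA. How many animals stand behind each sample is not stated. No wild-type array was analysed here. Signals are multiples of the array median, and precision is limited by having 4 arrays.

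The targeted gene went against 2 of the labels. Ap1m2, which encodes the mu subunit of AP-1B, stood at 19.9 (heterozygous 1), 4.33 (heterozygous 2), 2.49 (knockout 1) and 22.3 (knockout 2), so the highest value stood on an array labelled knockout. Its log2 difference, knockout minus heterozygous, was −0.28 (standard error 0.89, limma adjusted p = 0.999907), and a probe set outside the deleted part would check nothing. Directions below therefore follow "the arrays labelled knockout" and no more. The Xist signal was 0.349, 30.3, 0.070 and 60.1 and that of the Y-linked Eif2s3y 12.1, 0.256, 24.1 and 0.051 in the same order, so each label held a male and a female pattern. All 14 measured epithelial markers lay above the array median on at least 1 array, with summed signals of 4132 and 4402 on the heterozygous and 4857 and 3526 on the knockout arrays. Within that list the brush border enzyme genes Lct, at 312, 82.3, 3.97 and 237, and Anpep, at 203, 137, 46.7 and 190.3, were lowest on knockout 1, while the keratin gene Krt19, at 205, 382, 551 and 192, was highest there. These 3 were named after their values were seen. Of the 14 markers, knockout 1 was the lowest array for 2 and the highest for 9.

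The subunit genes were among the bright genes of this epithelium. Their mean signals over the 4 arrays reached 527, with a median of 142.7, where the array median is 1. Of the 82, 78 passed the filter on low values, a mean of at least 0.983. The means fell into separate ranges, 72 genes at 45.0 or above and 10 at 4.60 or below. The dim ones were Cox6a2, Cox6b2, Cox7c, Cox8c, Ndufa4l2 and Ndufb1, which passed the filter, and Cox4i2, Cox7b2, Cox8b and Ndufb4, which did not. Among the 72 bright genes the highest array was less than 2 times the lowest for 71, or 98.6%, against 54.1% of all probe sets that passed the filter, many of which were dimmer. The median ratio of highest to lowest was 1.45 for these 72 genes and 1.93 for all probe sets that passed. The gene that exceeded 2 was Atp5g1.

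No subunit gene passed the test between the labelled groups. By limma with Benjamini-Hochberg adjustment over 22519 probe sets, 0 of 78 passed, beside 0% of all probe sets tested, and the adjusted p was 0.999907 for each gene named here. At an unadjusted p under 0.05 it was 0 of 78, beside 0.755% of all. The median log2 difference of the 78 genes was 0.02, beside 0.01 for all probe sets tested, with a median standard error of 0.45 per gene. Values were higher on the arrays labelled knockout for 46 of 78, where 50.7% of all probe sets were. By complex the median was 0.05 for complex I (24 of 35 higher), −0.06 for complex II (1 of 4), 0.03 for complex III (6 of 8), −0.02 for complex IV (5 of 14) and 0.03 for complex V (10 of 17). The median for complex V turned to −0.01 after quantile normalization, that for complex I was then 0.08, and centring each array on the median log2 value of its probe sets that passed the filter took the median of all 78 to −0.0032. Most single values were close to 0, and 72 of the 78 lay inside the middle 50% of all probe sets tested, between −0.21 and 0.22. Many of those probe sets were dimmer than the subunit genes, so this does not compare genes of like signal.

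**Figure D1:**
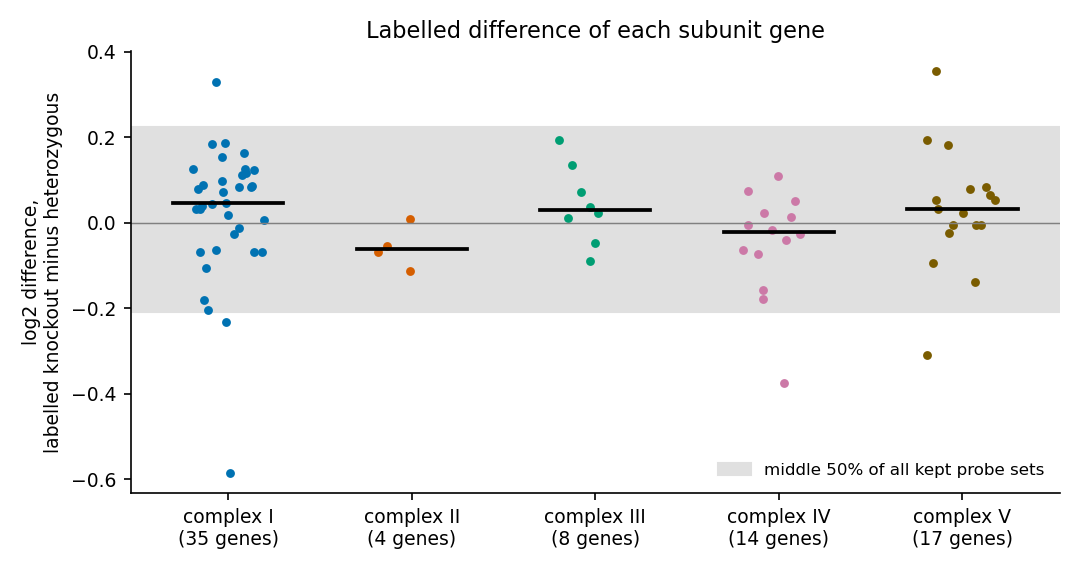
Log2 difference, arrays labelled knockout minus heterozygous, for each subunit gene that passed the filter, by respiratory complex. Points are genes, black bars are medians over the genes of a complex, and the grey band is the middle 50% of all 22519 probe sets tested. The medians lie between −0.06 and 0.05, and 72 of 78 genes fall in the band, which also holds many dimmer probe sets.

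The sign of that median depended on which arrays were kept. Leaving out heterozygous 1 gave −0.17, with 6 of 78 higher, and leaving out knockout 1 gave −0.17, with 11 higher. Leaving out heterozygous 2 gave 0.21, with 67 higher, and leaving out knockout 2 gave 0.21, with 64 higher. On deposited values the subunit genes thus differed more within each label than between labels. All probe sets that passed the filter had a like gap. Their median was 0.40 for heterozygous 2 minus heterozygous 1 and 0.33 for knockout 1 minus knockout 2. The 78 genes had 0.41 and 0.36. The share of all probe sets that was higher with an array left out is not given here.

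The larger pattern lay between single arrays. Among the 72 bright genes, 69 were higher on heterozygous 2 than on heterozygous 1 and 67 were higher on knockout 1 than on knockout 2. The shares over all probe sets that passed the filter were 75.2% and 67.7%. Both heterozygous 2 and knockout 1 exceeded both other arrays at 64 of the 72, beside 52.7% of all probe sets that passed the filter. On the log2 scale the median deviation of the 78 genes from their own mean was −0.20 and 0.17 for the heterozygous arrays 1 and 2, and 0.19 and −0.17 for the knockout arrays 1 and 2. All probe sets that passed had −0.20, 0.20, 0.18 and −0.17 in that order, and the 75th percentiles of the arrays ran the same way at 4.13, 5.54, 5.57 and 4.27. The deposited scaling sets the medians over all 45037 probe sets equal, and leaves these upper values, and the median of the probe sets that passed the filter, apart. The pair of arrays with higher values, heterozygous 2 and knockout 1, is also the pair with lower Ap1m2. Whether labels were exchanged was not tested, so neither the labelled differences nor the gaps within a label can be assigned to a genotype with certainty.

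After quantile normalization, which gives the arrays a common distribution, the median deviations of the 78 genes were −0.04, 0.01, −0.04 and 0.08. Heterozygous 2 and knockout 1 both exceeded the other arrays at 8 of the 72 bright genes, a count with no share over all probe sets beside it. Knockout 2 then lay above heterozygous 1 at 62 of 78 and above heterozygous 2 at 57 of 78. Among all 22519 probe sets that passed the filter it did so at 11470 and 10910. The median difference of knockout 1 from knockout 2 was −0.14, with a further spread between complexes. It was −0.01 for complex I, −0.27 for complex II, −0.04 for complex III, −0.25 for complex IV, whose 14 genes include 4 dim ones, and −0.16 for complex V. These are descriptions of 4 arrays, and the difference between complexes was not tested.

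**Figure D2:**
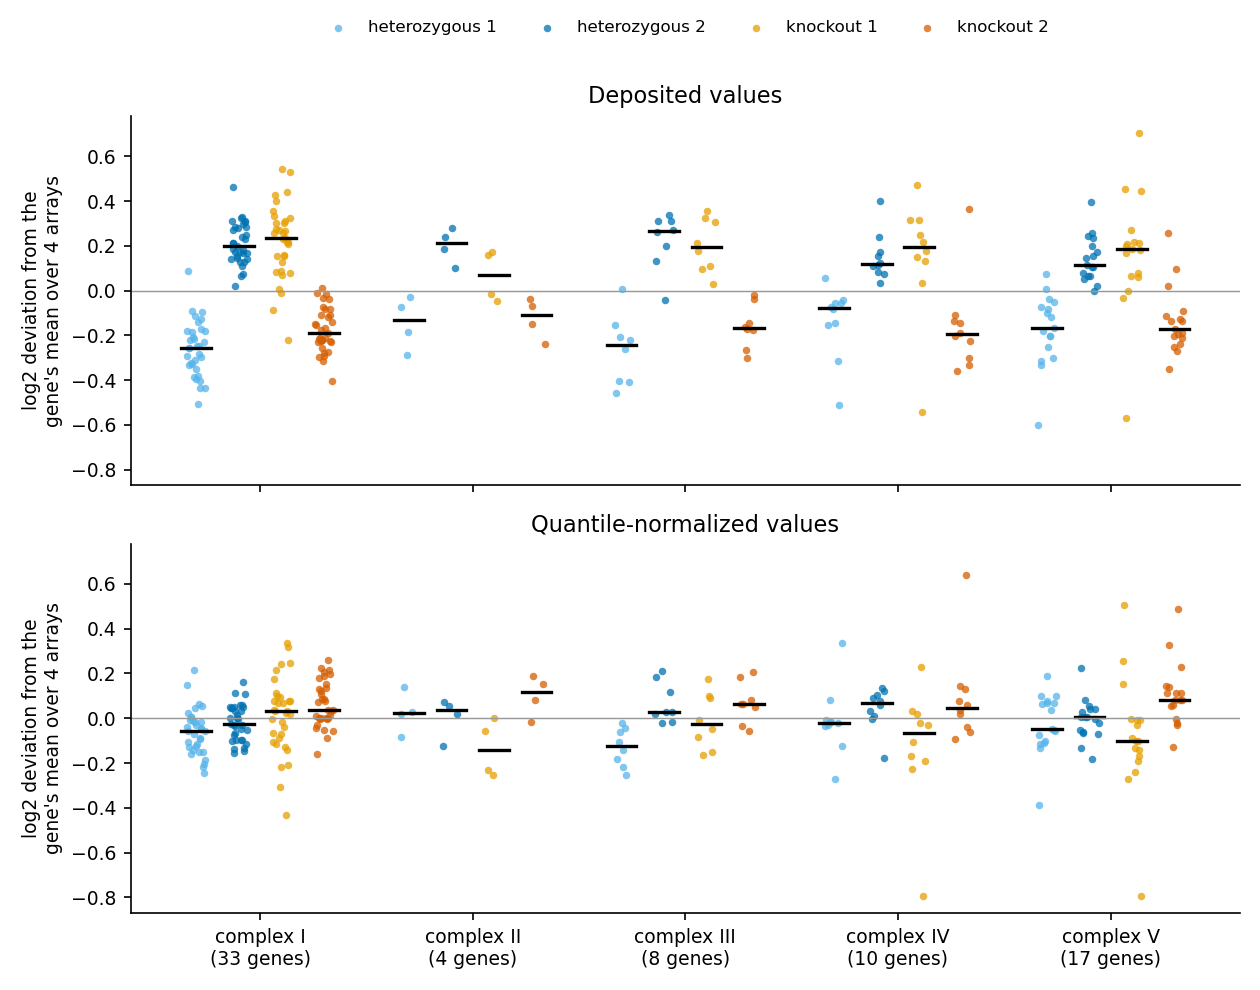
Log2 deviation of each bright subunit gene (mean signal of at least 45.0) from its mean over the 4 arrays, by complex, for deposited values above and quantile-normalized values below. Points are genes, colours are arrays and black bars are medians. On deposited values heterozygous 2 and knockout 1 sit above the other arrays in every complex, and after quantile normalization no such order is shared by all complexes.

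The gap between the heterozygous arrays narrowed as signals grew. The median ratio of heterozygous 2 to heterozygous 1 was 1.55 for the 11 genes with means from 20 to 100, 1.40 for the 33 from 100 to 200, and 1.15 for the 28 above 200. Across the 72 bright genes the ratio and the mean had a Pearson r of −0.60 and a Spearman rho of −0.62 on the log scale. The ratio of knockout 1 to knockout 2 had an r of 0.08 and a rho of −0.02. Genes are not independent replicates, and all points share the same arrays, so these are descriptions with no p.

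**Figure D3:**
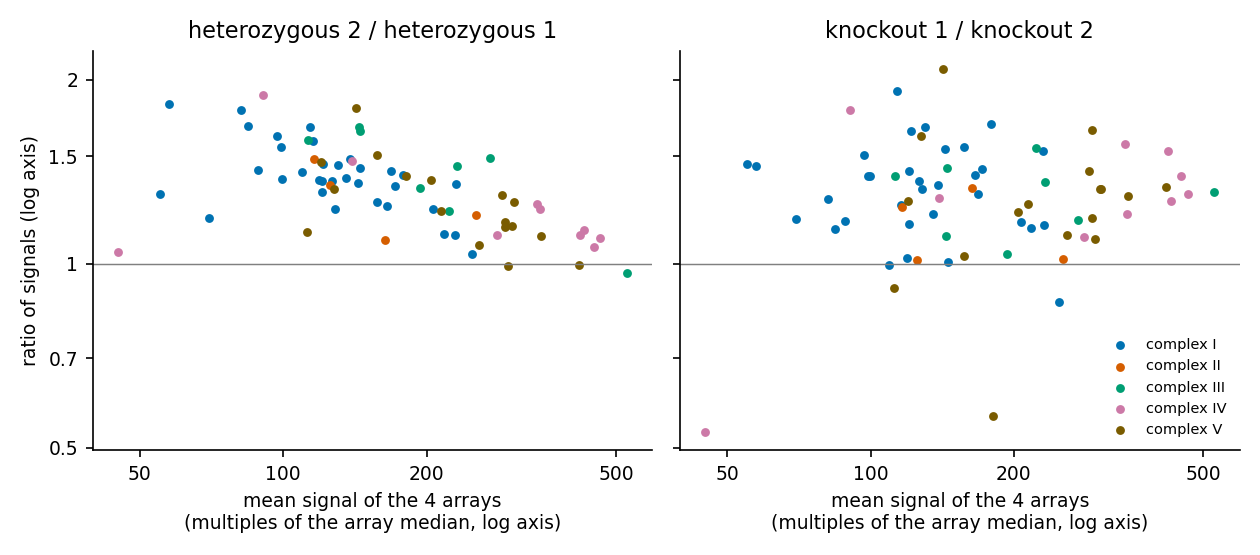
Ratio of signals between the arrays of a label (log axis) against the mean signal of the 4 arrays (log axis) for the 72 bright subunit genes, coloured by complex. Heterozygous 2 over heterozygous 1 is shown on the left, with r = −0.60, and knockout 1 over knockout 2 on the right, with r = 0.08 and both Cox7a1 and Atp5md well below 1.

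The labelled groups did not overlap at 3 of 78 genes, beside 17.3% of all probe sets tested. These were Ndufa1, Cox7c and Atp5h, each lower on both arrays labelled knockout. After quantile normalization it was 19 of 78, of which 17 were higher on the arrays labelled knockout, beside 22.7% of all. With each array centred on the median log2 value of the probe sets that passed the filter it was 9 of 78, beside 21.1% of all. With no filter it was 5 of 82, beside 24.6%, and with probe sets averaged per gene 1 of 78, beside 17.3%. With an array left out the groups separate more easily, and it was 36 of 78 beside 52.3% without heterozygous 1, 49 beside 60.9% without heterozygous 2, 32 beside 53.1% without knockout 1 and 45 beside 68.2% without knockout 2.

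The promoters of the genes were also searched for motifs. RefSeq promoters of assembly GRCm38.p6, each 250 bases before to 50 after a start, were matched for 67 genes. The palindrome of NRF1, a factor known for driving respiratory genes, read with a free base near its centre, stood on either strand in 22.4% of these 67 and in 5.19% of all 27025 genes with a promoter. With A as that base it was in 5.97% against 1.07%, and is shown in capitals for Cox6a1 and Atp5k as the plain example of that motif. The GABPA core CCGGAAG was in 25.4% against 9.93%, the ERRalpha core AAGGTCA in 11.9% against 5.38%, and the YY1 core AAGATGG in 14.9% against 7.28%. The TATA box TATAAA was in 11.9% against 15.7%. All motifs were searched on both strands, the free-base count includes the count with A, and the GABPA core can overlap the ERRalpha or the YY1 core by its last letters. Shares are descriptions, and a match is not a binding site. The genes set beside the members were not matched to them for base composition.
Cox6a1 chr5:115349086-115349145, minus strand: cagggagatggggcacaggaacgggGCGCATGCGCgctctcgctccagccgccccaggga
Atp5k chr5:108434415-108434474, minus strand: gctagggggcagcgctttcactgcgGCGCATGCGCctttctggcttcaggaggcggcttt

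The 4 genes that departed most from the shared array profile (Atp5g1, Atp5md, Cox7a1 and Ndufa1) and, for comparison, Ndufs8 and Cox7a2 are printed with CCAAT in capitals on either strand, a motif chosen after the sequences were seen. CCAAT was in 41.8% of the 67 and 41.1% of all, so the subunit genes were near the background. At least 4 copies stood in 3 of the 67 (4.48%), Atp5b, Atp5g1 and Ndufb11, beside 1.225% of all genes. Atp5g1, with the highest labelled difference, had 5 matches upstream of its start, a pair of which overlap on opposite strands, and Ndufs8 had 3. Atp5md had a copy, Cox7a1 had a copy in the bases printed, and both Ndufa1 and Cox7a2, the counterpart of Cox7a1, had none. The 4 genes that departed most thus held from 0 to 5 matches. All runs end at the base before the annotated start.
Atp5g1 chr11:96075632-96075881, minus strand: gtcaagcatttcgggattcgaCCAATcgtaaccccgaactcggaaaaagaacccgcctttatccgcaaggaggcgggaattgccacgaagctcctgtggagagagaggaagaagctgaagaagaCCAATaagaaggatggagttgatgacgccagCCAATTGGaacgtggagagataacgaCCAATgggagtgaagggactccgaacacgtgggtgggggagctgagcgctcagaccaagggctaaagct
Ndufs8 chr19:3912775-3912894, minus strand: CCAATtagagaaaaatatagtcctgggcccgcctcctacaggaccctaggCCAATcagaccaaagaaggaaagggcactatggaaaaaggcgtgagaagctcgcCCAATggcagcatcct
Atp5md chr19:47090648-47090767, minus strand: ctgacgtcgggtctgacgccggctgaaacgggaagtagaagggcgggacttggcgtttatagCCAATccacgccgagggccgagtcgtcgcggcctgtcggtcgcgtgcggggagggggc
Cox7a1 chr7:30184051-30184170, plus strand: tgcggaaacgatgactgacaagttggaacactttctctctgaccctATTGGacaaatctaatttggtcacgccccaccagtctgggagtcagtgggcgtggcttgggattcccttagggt
Ndufa1 chrX:37191239-37191358, minus strand: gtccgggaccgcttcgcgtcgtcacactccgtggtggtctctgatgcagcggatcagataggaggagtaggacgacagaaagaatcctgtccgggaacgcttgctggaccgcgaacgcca
Cox7a2 chr9:79759854-79759973, minus strand: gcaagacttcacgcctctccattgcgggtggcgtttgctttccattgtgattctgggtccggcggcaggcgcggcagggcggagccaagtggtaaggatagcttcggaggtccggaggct

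Complex I is the largest of the 5, with a peripheral arm that carries the flavin and iron-sulfur clusters and a membrane arm that pumps protons. Its core subunits had small labelled differences. Ndufv1, which binds NADH and flavin, had 103, 135, 131 and 113, in the array order heterozygous 1 and 2, then knockout 1 and 2, which holds for all series of 4 values below. Its partner Ndufv2 had 142, 190.2, 209 and 146, and Ndufs1, the largest iron-sulfur subunit, had 46.3, 60.1, 67.6 and 46.5. The labelled groups overlapped in all 3. Ndufs3 had 55.7, 99.2, 95.6 and 74.9 and Ndufs7 80.2, 110.3, 121 and 86.9, both with heterozygous 1 lowest. Ndufb9, one of the bright accessory subunits, had 202, 273, 241 and 208.

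Ndufs8, an iron-sulfur subunit on the path to ubiquinone, had the highest labelled difference of complex I. Its signals were 131, 183, 253 and 149, with means of 157 ± 36.6 on heterozygous and 201 ± 73.1 on knockout arrays (SD, n = 2 each). The log2 difference was 0.33 (standard error 0.46, limma adjusted p = 0.999907). The gene was highest on knockout 1, and the labelled groups overlapped. Its 5 other probe sets gave log2 differences of 0.33, 0.24, 0.23, 0.11 and −0.03, so the direction was not shared by all. The set used and those at 0.33 and 0.23 end in _x_at, a suffix described below, and those at 0.24 and 0.11 do not. The set at −0.03, which does not either, was nearly as bright as the one used, with a mean of 169.6 beside 178.9. The mitochondrial acyl carrier gene Ndufab1 had 113, 154, 186 and 121, also highest on knockout 1.

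Ndufa1, a small membrane-arm subunit encoded on the X chromosome, had the lowest difference among bright complex I genes. Its signals were 263, 273, 212 and 246, and the means were 268 ± 6.96 and 229 ± 23.7 (SD, n = 2 each). The log2 difference was −0.23 (standard error 0.39, limma adjusted p = 0.999907). Both knockout arrays lay below both heterozygous arrays, and the gene was lowest on knockout 1. Ndufa4, now counted as a subunit of complex IV, had 92.8, 135, 161 and 97.5. Ndufa4l2, its paralogue induced by hypoxia, was near the array median at 1.76, 0.977, 0.439 and 1.26 (log2 difference −0.59), and at that level the sign carries little. Ndufb4, listed at 0.030, 0.571, 0.379 and 0.586, did not pass the filter, and both probe sets that pair its symbol with those of related genes were left unused.

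Complex II, succinate dehydrogenase, also belongs to the tricarboxylic acid cycle. The flavoprotein gene Sdha had 159, 174, 183 and 137. The iron-sulfur subunit gene Sdhb had 241, 289, 246 and 242, which gave a log2 difference of −0.11 (standard error 0.38). The membrane anchor genes Sdhc and Sdhd had 109.6, 147, 123 and 121, and 94.0, 139, 128 and 103. The labelled groups overlapped in all 4, and heterozygous 2 was highest in all but Sdha. The other probe set of Sdhc, at 21.7, 38.4, 28.5 and 9.26, gave a log2 difference of −0.81, where the one used gave −0.05. Its groups overlapped too. Other probe sets that passed the filter gave −0.03 and −0.10 for Sdha and −0.13 for Sdhd.

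Complex III passes electrons by way of the Rieske iron-sulfur protein. Its gene Uqcrfs1 had 167, 221, 197 and 190.0, a log2 difference of 0.01. The core protein genes Uqcrc1 and Uqcrc2 had 196, 284, 259 and 190.04, and 197, 241, 275 and 178. Both spread more within labels than between them. Uqcrb, a subunit at the ubiquinone site and the brightest of all 82 genes, had 527, 509.6, 608 and 465. Uqcrh, the hinge protein that docks cytochrome c1, had 224, 334, 288 and 244. The small subunit genes Uqcr11 (103, 169.7, 181 and 126) and Uqcr10 (83.4, 133, 137 and 98.1) had the highest differences of the complex, 0.19 and 0.13, and Uqcrq (107, 179, 153 and 138) had 0.07. Heterozygous 1 was lowest for all 3.

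Complex IV holds subunits that exist as tissue isoforms. Cox4i1, Cox5a and Cox5b, which surround the catalytic core, had 311, 383, 377 and 313, then 302, 379, 419 and 267, and then 392, 437, 517 and 337. The liver-type Cox6a1 had 429, 456, 530.05 and 381, while the heart and muscle form Cox6a2 had 2.41, 1.52, 1.66 and 2.40. Cox6b1 had 443, 489, 521 and 401, and its testis form Cox6b2 1.42, 1.06, 1.01 and 1.32. Cox6c, another nuclear subunit gene, had 272, 304, 287 and 260.2. Cox8a had 110.5, 162, 159.7 and 124, whereas the muscle form Cox8b had 0.048, 0.107, 0.074 and 0.038 and the testis form Cox8c 4.69, 4.88, 3.17 and 5.67. Cox4i2, a form of lung that responds to hypoxia, did not pass the filter at 0.476, 0.156, 1.49 and 1.12, nor did the testis form Cox7b2 at 0.015, 0.137, 0.204 and 0.477. Signals of different probe sets are not levels on a common scale, so only the place of each against its own array median is given. By that measure Cox4i2, Cox7b2 and Cox8b did not pass the filter, while the muscle form Cox6a2 and the testis forms Cox6b2 and Cox8c lay somewhat above the median on all 4 arrays.

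Cox7a1, the heart and muscle form of subunit 7a, had signals of 45.7, 47.7, 29.99 and 56.6, well above the array median on all 4 arrays, beside 406, 461, 473 and 374 for the widespread form Cox7a2. Knockout 1 was the lowest array for Cox7a1 on both scales. For Cox7a2 it was the highest on deposited values and the lowest after quantile normalization (425, 465, 380.3 and 445). The log2 difference of Cox7a1 was −0.18 (standard error 0.56, limma adjusted p = 0.999907), and the labelled groups overlapped. Of 11 striated muscle genes 8 lay under the array median on every array (Myh1, Myh2, Myh4, Myh6, Actc1, Tnnt2, Tnnt3 and Mb), while Acta1, at 5.05, 11.2, 8.41 and 3.29, and Ckm, at 1.17, 1.65, 1.82 and 1.37, lay above it on all 4. The list summed to 10.3 and 15.4 on heterozygous and 13.9 and 7.75 on knockout arrays. Of brown adipocyte genes all 3 measured, Ucp1, Cidea and Adipoq, lay under the median on every array, with sums of 0.351 and 0.723 on heterozygous and 0.462 and 0.150 on knockout arrays. All 11 stromal and smooth muscle genes were above the median on at least 1 array, with sums of 27.2, 20.8, 31.5 and 29.1, and the part of any of these cells in the Cox7a1 signal was not tested. In bulk samples such as these, fewer cells of a type and less RNA per cell cannot be told apart.

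Cox7a2l, a gene linked to the joining of complexes III and IV into supercomplexes, had 60.7, 115, 120.2 and 67.5. Both heterozygous 2 and knockout 1 were well above the others. Cox7c was measured by a dim probe set at 4.18, 4.84, 3.39 and 3.40, for a log2 difference of −0.38 (standard error 0.43). Its other probe set, dimmer still, gave 0.06.

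Complex V couples a catalytic head, made of alpha, beta and gamma subunits, to a ring of c subunits in the membrane. The alpha subunit gene Atp5a1 had 247, 321, 343 and 241, the beta subunit gene Atp5b 329, 365, 393 and 304 and the gamma subunit gene Atp5c1 281, 324, 346 and 262. Their log2 differences were 0.03, −0.01 and −0.0044, and the groups overlapped in each. The delta subunit gene Atp5d had 249, 291, 393 and 237, highest on knockout 1 (log2 difference 0.18). Its other probe set gave 0.21.

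The c subunit is encoded by 3 genes whose mature proteins are the same and whose import sequences differ. Atp5g1 had signals of 87.8, 158, 218 and 104, with means of 123 ± 49.8 on heterozygous and 161 ± 79.99 on knockout arrays (SD, n = 2 each). The log2 difference was 0.36 (standard error 0.52, limma adjusted p = 0.999907), the highest of the 78. Knockout 1 had 2.48 times the signal of heterozygous 1, and the groups overlapped. Quantile-normalized signals were 104, 137, 194 and 125, so knockout 1 was highest on both scales. Atp5g2 had 101, 135, 169.9 and 105 (log2 difference 0.19), while Atp5g3 had 417, 415, 479 and 358 (−0.01). On deposited values knockout 1 was the highest array for all 3. After quantile normalization it was still the highest for Atp5g2 (118, 116, 151 and 125), but the lowest for Atp5g3 (435, 409, 386 and 430.4).

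Atp5md, a small membrane subunit tied to the pairing of ATP synthases, showed the reverse. Its signals were 165, 231, 118 and 209.6, with means of 198 ± 46.1 and 164 ± 64.6 (SD, n = 2 each). The log2 difference was −0.31 (standard error 0.46, limma adjusted p = 0.999907), the lowest of complex V. Knockout 1 was the lowest array with 0.564 times the signal of knockout 2, and the groups overlapped. It has a sole probe set, so no second measurement was at hand. Atp5h, a stalk subunit, had 311, 309, 295 and 269, with means of 310.2 ± 1.69 and 282 ± 18.5 (SD, n = 2 each) and a log2 difference of −0.14. Its groups did not overlap, but its other probe set had 173, 221, 229 and 176 with overlapping groups and a difference of 0.03.

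**Figure D4:**
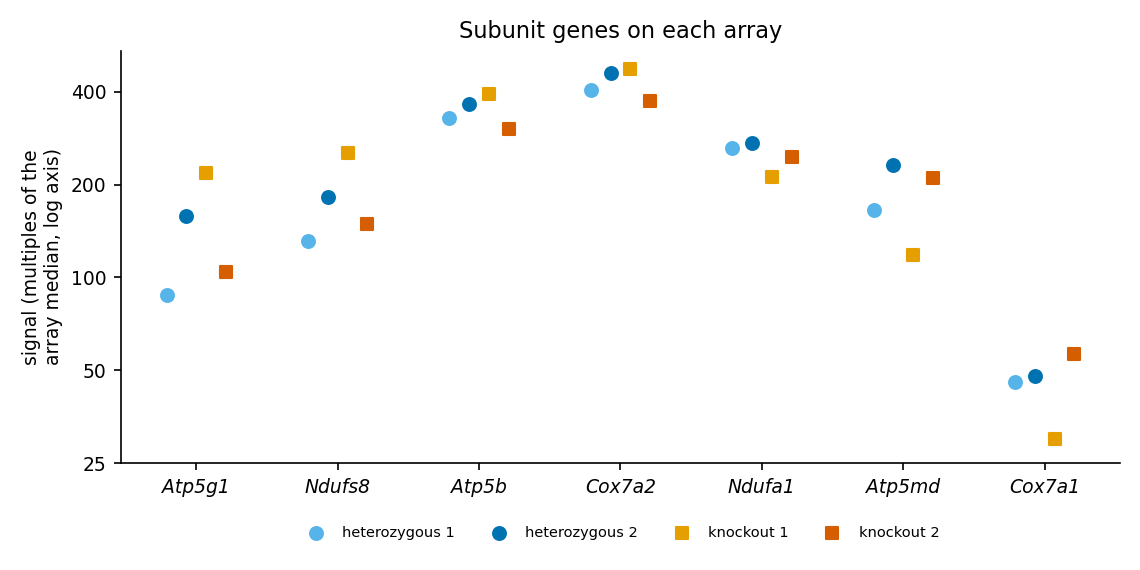
Signal of 7 subunit genes on each of the 4 arrays (log axis, multiples of the array median). Circles are arrays labelled heterozygous and squares arrays labelled knockout. On these deposited values knockout 1 is the highest array for Atp5g1, Ndufs8, Atp5b and Cox7a2 and the lowest for Ndufa1, Atp5md and Cox7a1, and after quantile normalization it is the lowest for Atp5b and Cox7a2 too.

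Single genes departed from the shared profile on different arrays. Once the median profile of the 72 bright genes was taken away, the largest departure lay on knockout 1 for 28 genes, on heterozygous 1 for 23, on knockout 2 for 11 and on heterozygous 2 for 10. The widest ranges over the 4 arrays were those of Cox7a1 (1.29 on the log2 scale), Atp5md (1.21), Atp5g1 (0.89) and Ndufa1 (0.73), and in these 4 the largest departure was on knockout 1, with −0.75, −0.77, 0.50 and −0.43. The genes cited here were picked after their values were seen. Markers of cycling crypt cells were highest on knockout 1, at 9 of 9 genes, with sums of 148 and 237 on heterozygous and 445 and 153 on knockout arrays, and none was under the array median on every array. Markers of T and natural killer cells were lowest there at 11 of 11, with sums of 477 and 96.7 against 14.6 and 292, and Cd4 was under the array median on every array. The brush border genes Lct and Anpep were lowest there too, but they were the only 2 of the 14 epithelial markers that were. Of those 14 markers 9 were highest on knockout 1. The part of these cells in the departures was not tested.

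Second measurements of the same genes showed the array pattern of deposited values too. Beyond the probe set used, 44 genes had 73 more that passed the filter. Of the 54 with a mean above 20, all 54 were higher on heterozygous 2 than on heterozygous 1 and 52 were higher on knockout 1 than on knockout 2. The shares over all probe sets that passed the filter were 75.2% and 67.7%. These further probe sets sit on the same arrays and so share the gap between arrays. The sign of the labelled difference was that of the probe set used in 36 of the 54, with a median gap of 0.06. Of the 19 dimmer ones it was the same in 6, so dim probe sets carried little of the gene's own sign. Among the 82 probe sets used, 5 ended in _x_at and 12 in _s_at. The manufacturer gives these suffixes to sets whose probes can also match transcripts of another gene. Subunit genes have many processed pseudogenes, so such values are uncertain.

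Other mitochondrial gene lists were read in the same fit, and no gene of any passed the adjusted threshold in either direction (limma with Benjamini-Hochberg adjustment, 0 at an unadjusted p under 0.05 too). The mitochondrially encoded subunits were not analysed here. Mitochondrial ribosomal proteins, which translate the mitochondrially encoded subunits, had 72 of 76 genes higher on the knockout label, with a median log2 difference of 0.25 beside the 0.02 of the subunits. Of all probe sets tested 50.7% were higher on that label. On deposited values 65 of the 76 were highest on knockout 1, beside 9260 of all 22519 probe sets tested. The median came to −0.25 with 5 of 76 higher when knockout 1 was left out, and to −0.19 when heterozygous 1 was. After quantile normalization their median deviation was 0.38 on knockout 1, where that of the subunits was −0.04. Mrps35, the member with the smallest p, had 13.9, 27.2, 38.4 and 22.1. Mitochondrial import genes were similar, at 23 of 26 higher with a median of 0.26, which was −0.21 without knockout 1 and −0.17 without heterozygous 1. The import chaperone gene Timm8a1 had 15.5, 31.7, 65.2 and 18.8, and the outer membrane channel gene Tomm40 had 10.6, 25.8, 43.6 and 14.7. The difference between these lists and the subunits was not tested, and cycling crypt cell markers were highest on the same array.

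Assembly factors, which build the complexes, had a median of 0.12 with 33 of 45 higher, and −0.14 without knockout 1 or −0.13 without heterozygous 1. Ndufaf6, a complex I assembly factor, had 2.70, 5.78, 12.8 and 5.51. Tricarboxylic acid cycle genes had a median of 0.10 with 12 of 17 higher, which was −0.13 with 4 higher without knockout 1 and −0.09 with 3 higher without heterozygous 1. Among them were isocitrate dehydrogenase, Idh2, at 9.91, 11.7, 22.5 and 12.7 and Ogdh at 119.9, 149, 95.2 and 123. Cytochrome c itself, Cycs, had 457, 484, 495 and 421, and Cyc1, the complex III cytochrome that the symbol rule left out, had 248, 301, 352 and 234. The biogenesis regulators had a median of 0.06 with 15 of 22 higher, which was −0.16 with 7 higher without knockout 1 and −0.03 with 9 higher without heterozygous 1. They include the mitochondrial helicase gene Twnk at 3.82, 5.68, 9.62 and 5.72 and the coactivator gene Pprc1 at 3.44, 5.24, 9.88 and 3.71. Glycolysis genes had 0.05 with 9 of 15 higher, which was −0.26 with 0 higher without knockout 1 and −0.33 with 1 higher without heterozygous 1. The list holds hexokinase 2, Hk2, at 3.93, 6.62, 12.6 and 4.02. Mitochondrial carriers and defence genes had 0.08 with 8 of 15 higher, which was −0.21 with 1 higher without knockout 1 and −0.19 with 2 higher without heterozygous 1. These include the ATP carrier gene Slc25a4 at 4.02, 13.3, 22.2 and 5.29. Knockout 1 was the highest deposited value for each gene cited in these lists except Ogdh. Some genes picked by p but not cited went another way. Pklr, Gpx4 and Esrrg were lowest on knockout 1, and Tmem126b and Pfkm were highest on heterozygous 2. Among measured genes knockout 1 was highest for 29 of 46 assembly factors, 14 of 17 cycle genes and 11 of 22 regulators. It was highest for 8 of 16 glycolysis genes and 11 of 18 carrier and defence genes.

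**Figure D5:**
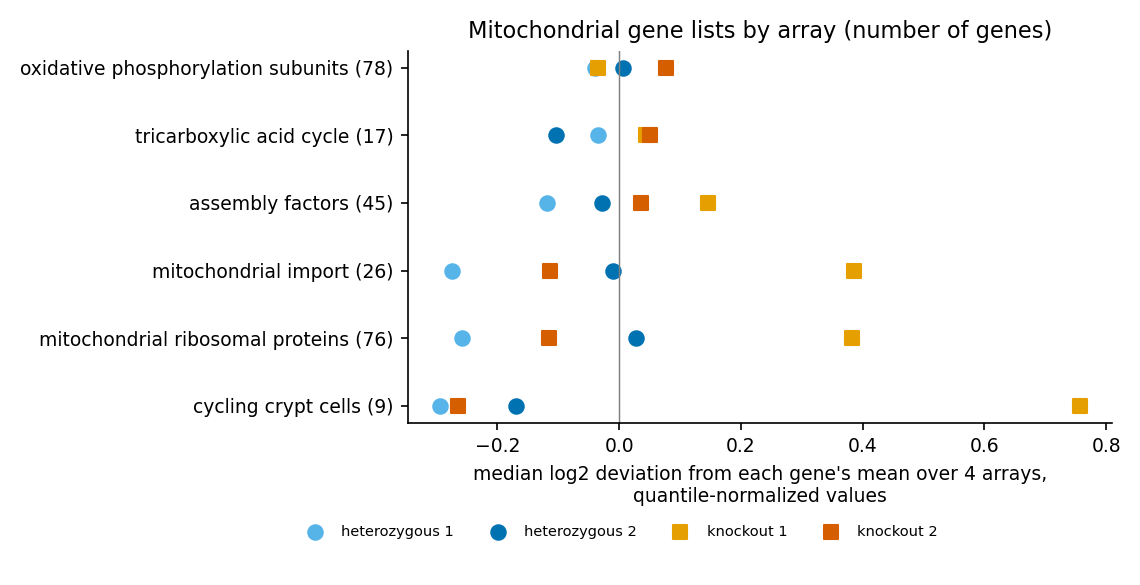
Median log2 deviation from each gene's mean over the 4 arrays, after quantile normalization, for the oxidative phosphorylation subunits and 5 other gene lists, with the number of genes in brackets. Circles are arrays labelled heterozygous and squares arrays labelled knockout. The subunits lie between −0.04 and 0.08, while knockout 1 stands at 0.38 for mitochondrial ribosomal proteins and at 0.76 for cycling crypt cell markers.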

How the data were processed

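The table the authors deposited held 1 intensity per probe set and array for 45037 probe sets on a linear scale, from MAS5 per the submitters' processing notes (MAS5 version: not given in the sources used here). Array medians lay between 0.996 and 0.998, so values were read as multiples of the array median, a scaling seen in the values only. The platform annotation named 34945 probe sets for a gene alone, 932 for several and 9160 for none, and 0 of the 34741 found by Entrez identifier in RefSeq GRCm38.p6 had another symbol there. Values were taken as log2(value + 0.32), the pseudocount being their 25th percentile, which understates differences of dim genes. Probe sets with a mean of at least 0.983, the median of all means, were kept, 22519 in all. The groups were fitted with limma 3.58.1 in R 4.3.3 (lmFit, eBayes with trend), adjusted by Benjamini-Hochberg over all 22519 at 0.05. The fit was tested on simulated data.

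Genes named were all of complex II, in each other complex the 3 highest and 2 lowest differences and the 2 brightest, the core subunits, the tissue isoforms, and up to 3 of each other list by p, of which some are cited. Ndufb1, Ndufb4, Ndufb11 and Atp5k were named after their values or sequences were seen. Members and lists were chosen with earlier results of these data known. Isoform proteins were not compared. Replicate numbers are shared between labels, but nothing in the labels says what a number marks. By Xist and Eif2s3y, number 1 had the male pattern and number 2 the female pattern in both labels. A block of replicate numbers thus also divides the arrays by sex pattern, and so does each gap within a label.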

Additional observations from a re-analysis of the deposited data

How the results depend on the processing

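The median log2 differences of all subunits and of each complex stayed within the spread between arrays of a label (pooled SD of array medians 0.34 for all, 0.11 for complex V) under other scalings, pseudocounts of 0.1 and 1, no filter, the brightest 25%, averaged probe sets per gene and the replicate block. That spread holds the gap between arrays on deposited values and is wide beside the medians, so staying within it says little. For complex IV the median went from −0.02 to −0.07 after quantile normalization and to 0.0012 with averaged probe sets. No subunit gene passed under any setting run. With 1 array left out, in fits that assume the lone array varies like the other group, the medians ranged from −0.17 to 0.21 for all subunits, −0.22 to 0.27 for complex I, −0.25 to 0.089 for complex II, −0.20 to 0.23 for complex III, −0.18 to 0.13 for complex IV and −0.17 to 0.20 for complex V. The count of members higher ranged from 6 to 67 and that of groups without overlap from 32 to 49, beside 52.3% to 68.2% of all probe sets in the same fits. The count of all probe sets past the threshold ranged from 0 to 240, with 240 without knockout 2 and 24 without knockout 1.

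Groups did not overlap at 3 members as deposited (17.3% of all probe sets), 19 after quantile normalization (22.7%), 9 with median centring (21.1%), 5 of 82 with no filter (24.6%) and 1 with probe sets averaged per gene (17.3%). Median centring used the median log2 value of the probe sets that passed the filter, not the deposited array median. The gap of heterozygous 2 over heterozygous 1, 0.41, was 0.045 after quantile normalization and 0.0097 with median centring. That of knockout 1 over knockout 2, 0.36, was −0.14 and 0.0028. These array gaps were varied after the data were seen. With the brightest 25% alone, 1 probe set passed, and it was no subunit gene. With the replicate number as a block 0 probe sets passed, as without it. Same-numbered arrays deviated in opposite ways (r = −0.51 over all probe sets kept), and a block of crossed pairs, added after the data were seen, also gave 0. Single genes kept their sign at 73 of 78 under quantile normalization, 70 with median centring, and 35 to 58 with an array left out.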
